A study of Mus musculus with 9 samples.

Results

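The subunits of the mouse oxidative phosphorylation system were followed across 9 RNA-seq libraries of MLL-AF9 leukemia cells. Members were the genes of the expression table named as subunits of complexes I to V (Nduf, Sdh, Uqcr, Cox and Atp5 genes, and the protein-coding genes of mitochondrial DNA), with at least 1 TPM in no fewer than 3 libraries. TPM, the unit of all levels given here, is a read count divided by transcript length and scaled so that a library sums to a fixed total. Of the 55536 genes of the table, 102 matched by name. The 9 that failed the filter were Cox6a2, Cox6c2, Cox7b2, Cox8b, Cox8c, Ndufa11b, Ndufa4l2, Ndufs6b and a second Atp5o identifier. A further 8 names that carried -ps were left out. The remaining 93 members were 80 nuclear genes and 13 mitochondrially encoded genes, and 89 of them had at least 1 TPM in all 9 libraries. The exceptions were Cox4i2, Cox7a1, mt-Co3 and mt-Nd4l. Ndufb4c, kept by its name, is annotated as a processed pseudogene whose 50-base stretches all occur in Ndufb4, and it was listed above Ndufb4 (mean of 59.8 against 15.4 TPM).

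Oxidative phosphorylation makes most of the ATP of a respiring cell. Complex I (NADH dehydrogenase) and complex II (succinate dehydrogenase) pass electrons to coenzyme Q, complex III hands them to cytochrome c, complex IV (cytochrome c oxidase) reduces oxygen, and complex V (ATP synthase) uses the proton gradient to make ATP. Every complex except complex II combines subunits made in the cytosol from nuclear genes with a few hydrophobic core subunits made inside the mitochondrion from mitochondrial DNA. Leukemia stem and progenitor cells of acute myeloid leukemia are known for their reliance on this pathway.

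The leukemia cells carried MLL-AF9 with GFP and a second retrovirus with BFP, either blank (MA9) or encoding IL-34 (MA9-IL-34), a ligand of the CSF-1 receptor. GFP+BFP+ cells were transplanted without irradiation into C57BL/6J mice aged 6 to 8 weeks and sorted from bone marrow at day 18. The c-Kit- and c-Kit+ fractions from MA9 mice formed the groups MA9-c-Kit- and MA9-c-Kit+, the c-Kit+ fraction from mice given IL-34 cells formed the group MA9-IL-34, and each group had 3 libraries. MLL-AF9 and both fluorescent proteins were present in all groups. Overexpression was driven by a retroviral vector, and no c-Kit- group carried IL-34. Nothing in the sources used here says whether replicates were separate mice, so a p-value here covers no more than the variation among these libraries, part or all of which may be technical. The MA9-c-Kit+ group served as reference for one comparison and the MA9-c-Kit- group for the others, so the 3 comparisons share libraries.

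The sort labels held for Kit itself, which read 1.63 to 2.90 TPM in MA9-c-Kit-, 70.6 to 135 TPM in MA9-c-Kit+ and 90.5 to 112 TPM in MA9-IL-34. The summed level of 8 monocyte-macrophage markers was 3591 to 5738 TPM in MA9-c-Kit-, 2078 to 4080 TPM in MA9-c-Kit+ and 1870 to 1983 TPM in MA9-IL-34. The sum of 6 erythroid markers was 10.98 to 1826 TPM in MA9-c-Kit-, 3.38 to 24.1 TPM in MA9-c-Kit+ and 1.18 to 1.84 TPM in MA9-IL-34. MA9-c-Kit- replicate 3 stood apart through hemoglobin, with 1031 TPM of Hbb-bs against 16.2 and 1.52 TPM in the other replicates of its group. MA9-c-Kit+ replicate 2 stood apart through mitochondrial transcripts, as described below. By adjusted p under 0.05, 5 of the 8 monocyte-macrophage markers were lower and 1 higher in MA9-c-Kit+ than MA9-c-Kit-, and 3 of 8 were lower in MA9-IL-34 than MA9-c-Kit+. In MA9-IL-34 against MA9-c-Kit-, 5 were lower and 2 higher, the latter C1qa and C1qb. Over all genes tested, 19% were called lower and 19.3% higher in MA9-c-Kit+ against MA9-c-Kit-. The shares were 23.4% and 26.6% in MA9-IL-34 against MA9-c-Kit-, and 5.49% lower in MA9-IL-34 against MA9-c-Kit+. The 6 neutrophil markers summed to 257 to 325 TPM in MA9-c-Kit-, 21.4 to 125 TPM in MA9-c-Kit+ and 66.4 to 141 TPM in MA9-IL-34. Single neutrophil markers went both ways: against MA9-c-Kit-, 1 was called higher and 2 lower in MA9-c-Kit+, and 2 higher and 1 lower in MA9-IL-34. The 3 NK cell markers summed to 0.42 to 1.09, 26.2 to 76.7 and 154 to 210 TPM in the same order, and only Nkg7 of them passed the filter on low values. Over the 9 libraries, 4 B cell markers summed to 19.6 to 41.7 TPM, 5 stroma and endothelium markers to 38.1 to 144 TPM and 3 megakaryocyte markers to 1.28 to 7.39 TPM. No marker of these lists was at 0 in all 9 libraries, the 5 T cell markers summed to at most 0.61 TPM in any library, and the part of other cells in the results was not tested. In bulk samples, fewer cells of a type and less RNA per cell cannot be told apart.

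The mitochondrially encoded subunits need a word on sequence before their values are read, because mitochondrial DNA inserted on chromosome 1 repeats several of them as annotated pseudogenes. The 6 copies with a mean of at least 1 TPM lie at chr1:24612407-24616197 (GRCm38, minus strand). Next to them Gm28439 (chr1:24611535-24612410), with a mean of 0.449 TPM, repeats part of mt-Nd4. Copy and subunit were identical over every aligned base for mt-Co2 and Gm28661 (681 bases), mt-Co3 and Gm28437 (783 bases), mt-Atp6 and Gm10925 (678 bases) and mt-Nd4l and Gm10222 (294 bases). mt-Nd3 and Gm28438 were identical at 344 of 345 bases, the exception being T3C, counted from 1 at the first base of mt-Nd3. mt-Co1 and Gm29216 were identical at 486 of 492 bases. The stretches that hold those differences are shown with differing bases in capitals. Within the aligned bases, no other letters tell subunit and copy apart. The windows are chrM:9459-9518 and chrM:6381-6417 (plus strand), and chr1:24613060-24613119 and chr1:24616161-24616197 (minus strand).
mt-Nd3: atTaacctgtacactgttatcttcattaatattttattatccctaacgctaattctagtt
Gm28438: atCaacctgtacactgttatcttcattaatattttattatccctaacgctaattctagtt
mt-Co1: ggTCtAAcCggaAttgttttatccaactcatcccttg
Gm29216: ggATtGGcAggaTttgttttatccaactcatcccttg
The differing letters of the mt-Co1 window are T1056A, C1057T, A1059G, A1060G, C1062A and A1066T, counted from the first base of mt-Co1. After them the sequences run on without a difference.

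The most abundant member by TPM was mt-Atp8, the short membrane subunit of ATP synthase. Its gene is 204 bases long and its last 43 bases are also the first bases of mt-Atp6, which is read in another frame. TPM divides by length, and how reads of the overlap were divided is unknown, so this rank need not be one of transcripts. mt-Atp6 had a mean of 435 TPM, and 7118 to 10669 TPM per library when summed with its copy. The mt-Atp8 gene (GRCm38, chrM:7766-7969, plus strand) is shown with that overlap in capitals.
mt-Atp8: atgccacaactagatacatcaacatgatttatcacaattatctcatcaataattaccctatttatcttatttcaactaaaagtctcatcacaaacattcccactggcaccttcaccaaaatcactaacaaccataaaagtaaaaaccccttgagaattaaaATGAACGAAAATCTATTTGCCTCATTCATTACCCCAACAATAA
mt-Atp8 had 62371, 59328 and 60822 TPM in MA9-c-Kit-, 75958, 28771 and 77833 TPM in MA9-c-Kit+, and 64172, 67523 and 59688 TPM in MA9-IL-34. It made up 57.6% to 72.9% of the TPM of all 13 mitochondrially encoded subunits, so a sum over them mainly follows this one short gene. MA9-c-Kit+ replicate 2 was far below the other 8 libraries. The log2 difference of mt-Atp8 was -0.13 (SE 0.36) for MA9-c-Kit+ against MA9-c-Kit- and did not pass the test (adjusted p = 0.797, limma).

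Together the 80 nuclear subunits held 10650, 12134 and 14707 TPM in MA9-c-Kit-, 13801, 16149 and 15880 TPM in MA9-c-Kit+, and 14202, 14494 and 13932 TPM in MA9-IL-34. The highest MA9-c-Kit- library, replicate 3, overlapped both other groups, and it was the library with high hemoglobin. The 13 mitochondrially encoded subunits held 8.73% to 8.99% of TPM in MA9-c-Kit-, 10.6%, 5.06% and 11.1% in MA9-c-Kit+, and 8.99% to 9.96% in MA9-IL-34. The 6 chromosome 1 copies held a further 2.96% to 4.13%. No test was made on these sums.

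**Figure D1:**
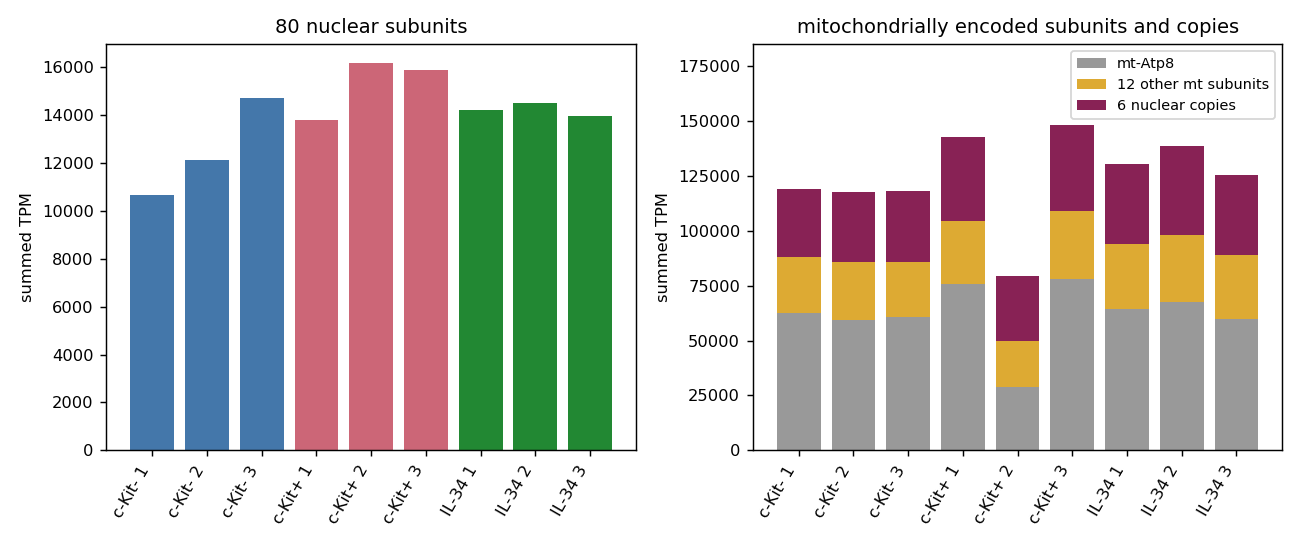
Summed TPM per library for the 80 nuclear subunits (left) and, stacked, for mt-Atp8, the 12 other mitochondrially encoded subunits and the 6 chromosome 1 copies (right), with 1 bar per library of the 3 groups. Nuclear sums ran from 10650 to 16149 TPM, and MA9-c-Kit+ replicate 2 had the highest nuclear sum and the lowest mt-Atp8, 28771 TPM. With TPM rescaled without mitochondrial genes and their copies, MA9-c-Kit+ replicate 3 had the highest nuclear sum, 19026 against 17779 TPM in replicate 2.

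Levels of single nuclear subunits ranged widely around a median of 143 TPM, and 50 of the 80 had a mean above 100 TPM over the 9 libraries. The highest in each complex were Ndufa6 (an accessory subunit of complex I, mean 259 TPM), Sdhd (a membrane anchor of complex II), Uqcr10 (a small subunit of complex III, 321 TPM), Cox4i1 (the common form of COX4, 606 TPM) and Atp5b (the catalytic beta subunit of ATP synthase, 1069 TPM). Atp5b had 616, 881 and 1192 TPM in MA9-c-Kit-, 1068, 1012 and 1358 TPM in MA9-c-Kit+, and 1193, 1203 and 1101 TPM in MA9-IL-34. Ndufa6 had 237 to 330 TPM over all 9 libraries. The groups overlapped for Atp5b in every comparison, and none of these 5 genes passed the test in any comparison.

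In MA9-c-Kit+ against MA9-c-Kit-, the comparison of the c-Kit+ with the c-Kit- fraction of the same leukemia, 24 of the 80 nuclear subunits were higher and 0 were lower at an adjusted p under 0.05 (limma on log2(TPM + 1), adjusted over all 13722 genes tested). Over all genes tested, 19.3% were called higher and 19% lower, against 30% and 0% of the nuclear subunits. The 24 included Cox4i2, which reached 1 TPM only in MA9-c-Kit+ and so entered the test through the group where it was high. At an unadjusted p under 0.05, 36 were higher and 0 lower. No share over all genes is given at that looser threshold, so these counts have no background beside them. The median log2 difference of the 80 was 0.29, beside 0.03 over all genes tested, and 74 of 80 estimates were above 0. By complex, 9 of 36 nuclear subunits of complex I were higher, 1 of 4 of complex II, 2 of 8 of complex III, 6 of 15 of complex IV and 6 of 17 of complex V. The called differences ran from 0.27 to 1.14 on the log2 scale. With a fold of at least 2 asked as well, 1 nuclear subunit was higher and 0 lower (limma), beside 5.66% and 9.15% of all genes tested. Other settings moved the count to 14 with no filter on low genes, 11 with only these 6 libraries in the fit and 43 after quantile normalization. With libraries left out it was 9 without MA9-c-Kit- replicate 1, 12 without replicate 2 and 42 without replicate 3, while 16 were called without MA9-c-Kit+ replicate 3 and 16 without MA9-IL-34 replicate 3.

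Complex I carried the nuclear subunits with the smallest p and the largest difference. Ndufa5, an accessory subunit of the matrix arm, had 17.2, 28.3 and 34.6 TPM in MA9-c-Kit-, 50.4, 51.2 and 50.6 TPM in MA9-c-Kit+, and 35.7, 34.0 and 35.4 TPM in MA9-IL-34. All MA9-c-Kit+ libraries lay above all others. The log2 difference for MA9-c-Kit+ against MA9-c-Kit- was 0.95 (SE 0.21, adjusted p = 0.00723, limma). MA9-IL-34 lay between the other groups by mean, and its difference from MA9-c-Kit+ was -0.52 (SE 0.21, adjusted p = 0.154, limma), which did not pass.

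Ndufb2 (ENSMUSG00000002416, GRCm38 chr6:39592574-39603382, plus strand), an accessory subunit of the membrane arm, had 20.6, 36.4 and 30.4 TPM in MA9-c-Kit-, 47.2, 106 and 51.9 TPM in MA9-c-Kit+, and 74.0, 73.3 and 73.8 TPM in MA9-IL-34. Both c-Kit+ groups lay above MA9-c-Kit- without overlap, and the MA9-c-Kit+ libraries spread on both sides of the narrow MA9-IL-34 range. The log2 difference was 1.14 (SE 0.30, adjusted p = 0.0154, limma) for MA9-c-Kit+ and 1.35 (SE 0.30, adjusted p = 0.0051, limma) for MA9-IL-34, each against MA9-c-Kit-. Without MA9-c-Kit- replicate 1 the former had an adjusted p of 0.0569. Ndufb2 overlaps Braf on the opposite strand, and the labelled library kit does not mark strand, so reads of the overlap cannot be told apart.

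Ndufs8, a core subunit that carries iron-sulfur clusters, had 74.7, 87.0 and 90.7 TPM in MA9-c-Kit-, 108, 134 and 112 TPM in MA9-c-Kit+, and 129, 123 and 126 TPM in MA9-IL-34. It was higher in both c-Kit+ groups, by 0.48 (SE 0.11, adjusted p = 0.0103, limma) in MA9-c-Kit+ and by 0.58 (SE 0.11, adjusted p = 0.0028, limma) in MA9-IL-34 on the log2 scale. The other complex I subunits higher in MA9-c-Kit+ were Ndufa12, Ndufc1, Ndufs6, Ndufa9, Ndufa2 and Ndufs7, by 0.33 to 0.83. Ndufab1, the acyl carrier protein that is also a complex I subunit but falls outside the naming rule, was higher by 0.96 in the same comparison (adjusted p = 0.00439, limma).

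In complex II, Sdha, the flavoprotein that oxidises succinate, had 119, 103 and 120.3 TPM in MA9-c-Kit-, 130.4, 141 and 143 TPM in MA9-c-Kit+, and 137, 135 and 132 TPM in MA9-IL-34. Its log2 difference for MA9-c-Kit+ against MA9-c-Kit- was 0.27 (SE 0.09, adjusted p = 0.0432, limma). The call ended when any library except MA9-c-Kit- replicate 3 was left out (adjusted p from 0.057 to 0.131). The anchor Sdhd had 118, 122 and 153 TPM in MA9-c-Kit-, 159.7, 154 and 155 TPM in MA9-c-Kit+, and 140.2, 145 and 145 TPM in MA9-IL-34, and it did not pass in any comparison. Sdhb and Sdhc did not pass either.

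In complex III, Uqcrb, which binds near the coenzyme Q site, had 184, 194 and 237 TPM in MA9-c-Kit-, 265, 263 and 285 TPM in MA9-c-Kit+, and 334, 289 and 265 TPM in MA9-IL-34. Both c-Kit+ groups were higher without overlap, by 0.41 (SE 0.12, adjusted p = 0.0288, limma) and 0.53 (SE 0.12, adjusted p = 0.0068, limma) on the log2 scale. The former call ended without MA9-c-Kit- replicate 1 or 2 or MA9-c-Kit+ replicate 1 or 3 (adjusted p from 0.063 to 0.0924). Uqcr10 had 219, 231 and 359 TPM in MA9-c-Kit-, 330.2, 371 and 454 TPM in MA9-c-Kit+, and 299, 316 and 312 TPM in MA9-IL-34. Its MA9-c-Kit- replicate 3 overlapped both other groups, and its difference of 0.54 for MA9-c-Kit+ against MA9-c-Kit- missed the threshold (SE 0.19, adjusted p = 0.0502, limma) and passed with the replicate number as a block (adjusted p = 0.0223, limma).

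In complex IV, Ndufa4, first described with complex I and now counted with cytochrome c oxidase, had 161, 173 and 225 TPM in MA9-c-Kit-, 252, 310.3 and 264 TPM in MA9-c-Kit+, and 291, 293 and 284 TPM in MA9-IL-34. It was higher by 0.57 (SE 0.14, adjusted p = 0.0101, limma) in MA9-c-Kit+ and by 0.65 (SE 0.14, adjusted p = 0.00376, limma) in MA9-IL-34 on the log2 scale. Cox6c, Cox7a2, Cox6b1 and Cox5a were also higher in MA9-c-Kit+, by 0.37 to 0.64. All 4 are ubiquitous small or matrix-facing subunits around the catalytic core. The remaining complex IV call was Cox4i2, which passed the filter only through MA9-c-Kit+ and is described below.

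In complex V the called subunits were Atp5g1, Atp5g2, Atp5mpl, Atp5o, Atp5j2 and Atp5k, higher by 0.47 to 0.95 on the log2 scale in MA9-c-Kit+. Atp5mpl is a small proteolipid of the membrane part, Atp5o belongs to the stalk that holds the catalytic head still, and Atp5j2 and Atp5k are membrane subunits. All 17 nuclear estimates of complex V were above 0, with a median of 0.47. The catalytic alpha and beta subunits, Atp5a1 and Atp5b, were not among those called.

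The replicate numbers of MA9-c-Kit- and MA9-c-Kit+ met the criterion for pairs, a correlation over 0.1, which some unlike numbers also met. With the number as a block in a fit of these 6 libraries, 22 nuclear subunits were higher, and 18 of them were among the 24. Atp5j2, Atp5k, Cox4i2, Ndufa9, Ndufs7 and Sdha did not pass in that fit, with adjusted p from 0.052 to 0.112 (limma). Uqcr10, Atp5g3, Atp5j and Ndufb4c passed in that fit but not without the block, with adjusted p from 0.0223 to 0.0437 (limma). Of the 24 calls, 9 remained when each of the 9 libraries was left out in turn: Cox4i2, which passed the filter on low values only through MA9-c-Kit+, and Ndufa5, Ndufa12, Ndufc1, Ndufs8, Ndufa4, Cox6c, Atp5g1 and Atp5mpl.

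**Figure D2:**
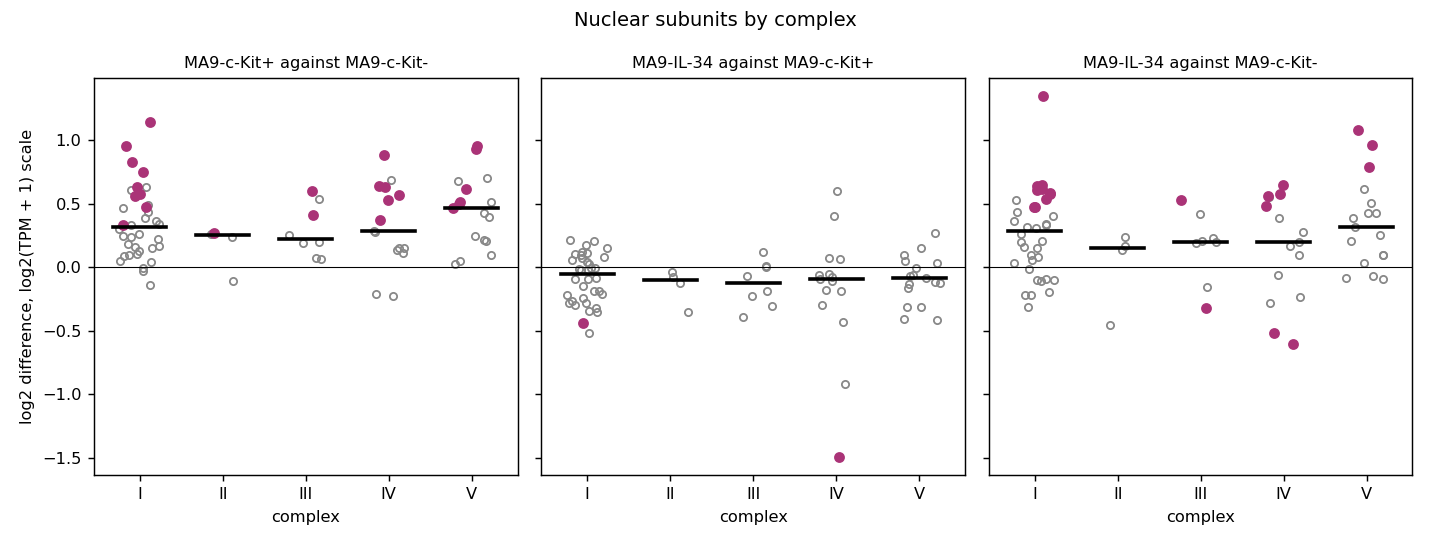
Log2 difference of each nuclear subunit by complex for the 3 comparisons, on the log2(TPM + 1) scale. Filled points passed an adjusted p under 0.05, open points did not, and lines are medians of each complex, which lay above 0 for all 5 complexes in both comparisons against MA9-c-Kit- and below 0 for all 5 in MA9-IL-34 against MA9-c-Kit+.

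In MA9-IL-34 against MA9-c-Kit+, the comparison of IL-34 overexpression within c-Kit+ leukemia cells, 0 nuclear subunits were higher and 2 were lower, Cox4i2 and Ndufs7. Cox4i2 reached 1 TPM only in MA9-c-Kit+, so it entered the test through the group where it was high, and the count was 1 with the filter on all 9 libraries. Over all genes tested, 7.43% were called higher and 5.49% lower, against 0% and 2.5% of the nuclear subunits. At an unadjusted p under 0.05 in the same limma fit, 0 were higher and 11 lower, again with no share over all genes at that threshold. The median log2 difference was -0.08, beside 0.01 over all genes tested, with 55 of 80 estimates below 0. With a fold of at least 2 asked as well, 0 were higher and 1 lower, beside 3.86% and 3.38% of all genes tested. The median with each library left out stayed between -0.15 and -0.03.

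Ndufs7, a core subunit of complex I with the iron-sulfur cluster next to the coenzyme Q site, had 85.1, 85.8 and 100.01 TPM in MA9-c-Kit-, 103, 122 and 117 TPM in MA9-c-Kit+, and 83.7, 78.3 and 88.6 TPM in MA9-IL-34. MA9-IL-34 lay below MA9-c-Kit+ without overlap and overlapped MA9-c-Kit-. The log2 difference from MA9-c-Kit+ was -0.44 (SE 0.11, adjusted p = 0.0279, limma). The call ended without MA9-c-Kit+ replicate 2 or 3 or without any MA9-IL-34 library (adjusted p from 0.0533 to 0.11). Against MA9-c-Kit- the difference was -0.11 (SE 0.11, adjusted p = 0.43, limma).

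Cox4i2 (ENSMUSG00000009876, GRCm38 chr2:152754173-152765037, plus strand), the alternative form of COX4 known from lung and from its response to low oxygen, was close to the detection limit. It had 0.65, 0.27 and 0.87 TPM in MA9-c-Kit-, 1.56, 2.72 and 1.60 TPM in MA9-c-Kit+, and 0.11 TPM in MA9-IL-34 replicate 1, with the other MA9-IL-34 libraries listed at 0. The 3 groups did not overlap in any comparison. On the log2(TPM + 1) scale the difference was -1.49 (SE 0.22, adjusted p = 0.00251, limma) for MA9-IL-34 against MA9-c-Kit+, and the adjusted p was 0.00415 with no filter on low genes. Since only the MA9-c-Kit+ libraries reached 1 TPM, the filter kept Cox4i2 through the group where it was high. With no filter, the adjusted p of MA9-c-Kit+ against MA9-c-Kit- was 0.018 (limma). Against MA9-c-Kit- it was -0.61 (SE 0.22, adjusted p = 0.0482, limma), a call that ended without MA9-c-Kit- replicate 1 or 3, MA9-c-Kit+ replicate 1 or 3 or any MA9-IL-34 library (adjusted p from 0.0551 to 0.134). Its paralog Cox4i1 had 535, 566 and 696 TPM in MA9-c-Kit-, 591, 652 and 699 TPM in MA9-c-Kit+, and 543, 581 and 592 TPM in MA9-IL-34, so Cox4i2 was at most 0.416% of the summed COX4 TPM in any library.

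In MA9-IL-34 against MA9-c-Kit-, 18 nuclear subunits were higher and 3 lower. Over all genes tested, 26.6% were called higher and 23.4% lower, against 22.5% and 3.75% of the nuclear subunits. The median log2 difference was 0.22, beside 0.06 over all genes tested. At an unadjusted p under 0.05, 27 were higher and 4 lower, again with no share over all genes at that threshold. At a fold of 2 or more with an adjusted p under 0.05, 2 were higher and 0 lower (limma), beside 11.3% and 12.7% of all genes tested. By complex, 10 of 36 nuclear subunits of complex I were higher, 0 of 4 of complex II (limma), 1 of 8 of complex III, 4 of 15 of complex IV and 3 of 17 of complex V. The number higher was 28 after quantile normalization, 8 without MA9-c-Kit- replicate 1, 11 without replicate 2, 37 without replicate 3, and 9, 10 and 13 without MA9-IL-34 replicates 1, 2 and 3. The 8 nuclear subunits still called higher without each of the 9 libraries in turn were Ndufs8, Ndufb2, Ndufs6, Ndufv3, Ndufa9, Ndufa4, Uqcrb and Atp5g2. Ndufv3, an accessory subunit beside the NADH site, had 79.4, 87.3 and 123 TPM in MA9-c-Kit-, 122, 126 and 127 TPM in MA9-c-Kit+, and 145, 155 and 137 TPM in MA9-IL-34, and it was higher by 0.61 in MA9-IL-34 than MA9-c-Kit- (SE 0.15, adjusted p = 0.00899, limma).

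The nuclear subunits lower in MA9-IL-34 than MA9-c-Kit- were Cox7a2l, Cox4i2 and Uqcrfs1. The call of Cox4i2 ended with no filter on low genes (adjusted p = 0.0549, limma). Cox7a2l, counted here with complex IV, had 273, 269 and 236 TPM in MA9-c-Kit-, 198, 262 and 208 TPM in MA9-c-Kit+, and 186, 171 and 183 TPM in MA9-IL-34. All MA9-IL-34 libraries lay below the other 6. The log2 difference was -0.52 (SE 0.12, adjusted p = 0.00653, limma), and the call remained with each library left out. Uqcrfs1, the Rieske iron-sulfur protein of complex III, had 80.4, 90.6 and 96.1 TPM in MA9-c-Kit-, 80.2, 103 and 98.2 TPM in MA9-c-Kit+, and 70.5, 72.7 and 70.1 TPM in MA9-IL-34. All MA9-IL-34 libraries were again the lowest. Its difference of -0.32 from MA9-c-Kit- (SE 0.12, adjusted p = 0.0493, limma) did not pass without MA9-c-Kit- replicate 2 or 3, MA9-c-Kit+ replicate 3 or any MA9-IL-34 library (adjusted p from 0.0553 to 0.129).

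**Figure D3:**
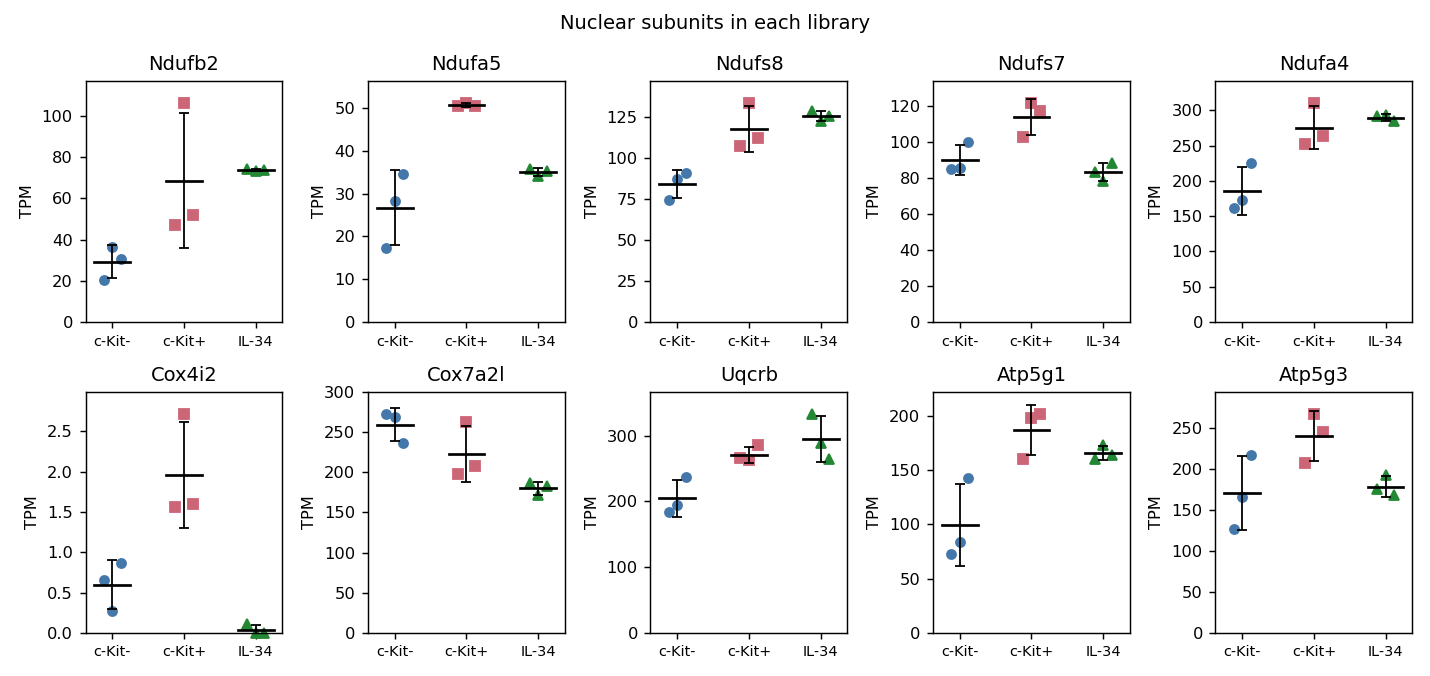
TPM of 10 nuclear subunits in each library (points, 3 per group), with group means and SD. Ndufa5 and Ndufs7 were highest in MA9-c-Kit+, Cox4i2 was at 0 to 0.11 TPM in MA9-IL-34, and Cox7a2l was lowest in MA9-IL-34, at 171 to 186 TPM.

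Several subunits exist as paralogs. Subunit c, the ring of ATP synthase that turns with proton flow, is encoded by Atp5g1, Atp5g2 and Atp5g3, which give the same mature protein. Atp5g1 had 72.3, 84.0 and 143 TPM in MA9-c-Kit-, 160.3, 198 and 202 TPM in MA9-c-Kit+, and 160.3, 173 and 164 TPM in MA9-IL-34. It was higher without overlap in both c-Kit+ groups, by 0.95 (SE 0.22, adjusted p = 0.00929, limma) and 0.79 (SE 0.22, adjusted p = 0.0158, limma) on the log2 scale. The second of these ended without MA9-c-Kit- replicate 1 (adjusted p = 0.053) or 2 (adjusted p = 0.0572). Atp5g3 had 127, 166 and 217 TPM in MA9-c-Kit-, 206, 267 and 245 TPM in MA9-c-Kit+, and 175, 192 and 168 TPM in MA9-IL-34, and it did not pass in any comparison without the block (adjusted p = 0.051 for MA9-c-Kit+ against MA9-c-Kit-, and 0.0437 with it, limma). The share of Atp5g1 in the TPM of the 3 genes was 35.1% ± 2.74 (SD, n = 3) in MA9-c-Kit-, 41.7% ± 0.96 in MA9-c-Kit+ and 45.1% ± 0.50 in MA9-IL-34. The 3 groups did not overlap in this share, but they did once the copy Gm10175, described next, was counted with Atp5g2: Atp5g1 then held 13.3% to 18.8%, 17.5% to 18.4% and 17.7% to 18.0%. No test was made on these shares.

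Atp5g2 (ENSMUSG00000062683, GRCm38 chr15:102662864-102672352, minus strand) shares its sequence with the processed pseudogene Gm10175 on chromosome 7, every 50-base stretch of which also occurs in Atp5g2. Atp5g2 had 9.31, 7.64 and 15.6 TPM in MA9-c-Kit-, 19.5, 18.2 and 25.2 TPM in MA9-c-Kit+, and 23.5, 19.9 and 26.6 TPM in MA9-IL-34. Gm10175 was listed far above it, at 287 to 626 TPM, so the level of Atp5g2 depends on how shared reads were divided. Atp5g2 was higher by 0.93 (SE 0.25, adjusted p = 0.0157, limma) in MA9-c-Kit+ and by 1.08 (SE 0.25, adjusted p = 0.00565, limma) in MA9-IL-34 than MA9-c-Kit-. The former ended without MA9-c-Kit- replicate 1 (adjusted p = 0.0542) or 2 (adjusted p = 0.0523). Summed with Gm10175, an alternative chosen after seeing the data, it went from 359 ± 55.8 TPM (SD, n = 3) in MA9-c-Kit- to 608 ± 54.8 in MA9-c-Kit+ and 586 ± 28.1 in MA9-IL-34, with log2 differences of 0.77 (adjusted p = 0.0021, limma) and 0.71 (adjusted p = 0.00178, limma). The direction was the same either way.

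Among the other paralogs, Cox6b2, known as the testis form of COX6B, was present beside Cox6b1. Cox6b2 had 118, 141 and 97.7 TPM in MA9-c-Kit-, 142, 208 and 74.7 TPM in MA9-c-Kit+, and 139, 191 and 193 TPM in MA9-IL-34. It made up 14.4% to 33.5% of the summed COX6B TPM, both extremes falling within MA9-c-Kit+, and it did not pass in any comparison. Cox6b1 had 272, 338 and 355 TPM in MA9-c-Kit-, 388, 414 and 444 TPM in MA9-c-Kit+, and 391, 390.3 and 385 TPM in MA9-IL-34. Only the first comparison passed, by 0.37 (SE 0.11, adjusted p = 0.0285, limma), and that call ended without MA9-c-Kit- replicate 1, replicate 3 of MA9-c-Kit+ or replicate 3 of MA9-IL-34 (adjusted p from 0.0505 to 0.0799). The heart and muscle form Cox7a1 stayed between 0.26 and 3.66 TPM, against 77.5 to 169 TPM for Cox7a2, the liver form. Cox7a2 had 77.5, 89.9 and 104 TPM in MA9-c-Kit-, 110.0, 169 and 147 TPM in MA9-c-Kit+, and 143, 129 and 131 TPM in MA9-IL-34, and was higher in both c-Kit+ groups, by 0.63 and 0.57 on the log2 scale (adjusted p = 0.0158 and 0.0179, limma). Those calls ended without MA9-c-Kit- replicate 1 (adjusted p = 0.057 and 0.0628), and the latter also without MA9-IL-34 replicate 1 (adjusted p = 0.0623). Cox6a1 ranged from 387 to 559 TPM and Cox8a from 455 to 690 TPM, and neither passed in any comparison.

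The mitochondrially encoded subunits were read apart from the nuclear ones. In MA9-c-Kit+ against MA9-c-Kit-, 0 of 13 were higher and 2 were lower (limma, beside 19.3% higher and 19% lower over all genes tested), and 0 were higher at an unadjusted p under 0.05. The median log2 difference was -0.07 with all libraries and 0.15 without MA9-c-Kit+ replicate 2, the library low in mt-Atp8, where 1 subunit was higher and 1 lower. With the replicate number as a block 1 subunit was higher, mt-Nd3, by 0.48 (adjusted p = 0.0305 in the fit of these 6 libraries, limma). The 2 were mt-Nd4l and mt-Co2, both with an identical copy on chromosome 1. mt-Nd4l had 431, 107 and 367 TPM in MA9-c-Kit-, was listed at 0 in all 3 MA9-c-Kit+ libraries, and had 466, 0 and 395 TPM in MA9-IL-34. Against a group at 0 no fold is given, and the fitted difference depends on the pseudocount (adjusted p = 0.0121, limma). Its copy Gm10222 had a mean of 1550 TPM. mt-Co2 had 186, 146 and 198 TPM in MA9-c-Kit-, 87.2, 22.5 and 98.0 TPM in MA9-c-Kit+, and 167, 54.9 and 81.2 TPM in MA9-IL-34, beside a mean of 12052 TPM for its copy Gm28661. Summed with the copies, mt-Co2 had a log2 difference of 0.07 (SE 0.20, adjusted p = 0.824, limma) and mt-Nd4l of 0.49 (SE 0.22, adjusted p = 0.117, limma), and no mitochondrially encoded subunit was lower. For mt-Co2 the call of -1.58 (SE 0.55, adjusted p = 0.0484, limma) also ended without any one of the MA9-c-Kit- libraries, without MA9-c-Kit+ replicate 1 or 2 or without MA9-IL-34 replicate 2 or 3 (adjusted p from 0.0501 to 0.116).

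The other members with copies were divided between subunit and copy in shares that differed by gene. mt-Co3, a core subunit of complex IV, had 494, 217 and 65.3 TPM in MA9-c-Kit-, 0.14, 69.2 and 350.5 TPM in MA9-c-Kit+, and 61.8, 219 and 121 TPM in MA9-IL-34, a range so wide that the groups overlapped in every comparison. Summed with Gm28437 it ran only from 7276 to 10220 TPM. mt-Atp6, the proton channel subunit of ATP synthase, had 571, 159.7 and 287 TPM in MA9-c-Kit-, 544, 386 and 718 TPM in MA9-c-Kit+, and 373, 358 and 518 TPM in MA9-IL-34, again with overlap. mt-Co1, the catalytic subunit of complex IV, had 12207, 12229 and 11907 TPM in MA9-c-Kit-, 12641, 8613 and 14115 TPM in MA9-c-Kit+, and 11190, 12123 and 11236 TPM in MA9-IL-34. mt-Co1 and its copy share only part of their length, and mt-Co1 held 71.1% to 81.0% of their summed TPM. None of mt-Co3, mt-Atp6 and mt-Co1 passed the test in any comparison, alone or summed with the copy.

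**Figure D4:**
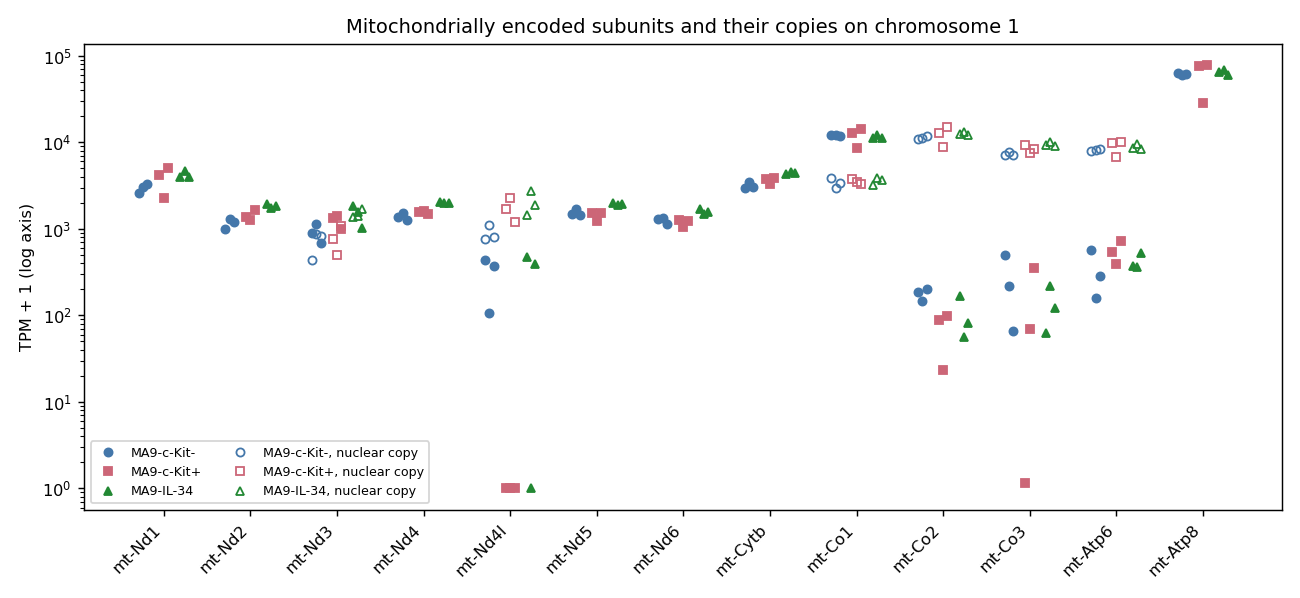
TPM + 1 on a log axis for the 13 mitochondrially encoded subunits (filled) and the 6 copies on chromosome 1 (open), with 1 point per library and 1 colour and symbol per group. For mt-Co2, mt-Co3 and mt-Atp6 the copy lies above the subunit in every library, and mt-Nd4l is at 0 in all 3 MA9-c-Kit+ libraries.

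In MA9-IL-34 against MA9-c-Kit-, 6 of 13 mitochondrially encoded subunits were higher (46.2%, beside 26.6% of all genes tested) and 0 were lower (limma, also 0 at an unadjusted p under 0.05), with a median log2 difference of 0.33. The count was 3 after median ratio scaling or without the trend, and 2, mt-Nd2 and mt-Nd4, with no filter or after quantile normalization, where the median was 0.0946. Of the 6, mt-Nd3 has one of the copies named above, mt-Nd4 shares 62.2% of its 50-base stretches with the chromosome 1 pseudogene Gm28439 (mean of 0.449 TPM), mt-Nd2 shares 8.19% with Gm13339, listed at 0, and all but mt-Cytb belong to complex I. mt-Nd2 had 989.5, 1300 and 1213 TPM in MA9-c-Kit-, 1376, 1277 and 1638 TPM in MA9-c-Kit+, and 1918, 1753 and 1849 TPM in MA9-IL-34, and was higher by 0.66 (SE 0.14, adjusted p = 0.00334, limma). mt-Nd4 had 1373, 1512 and 1272 TPM in MA9-c-Kit-, 1574, 1624 and 1501 TPM in MA9-c-Kit+, and 2023, 2000 and 1972 TPM in MA9-IL-34, and was higher by 0.53 (SE 0.10, adjusted p = 0.002, limma). mt-Cytb, the core of complex III, had 2975, 3514 and 3011 TPM in MA9-c-Kit-, 3803, 3296 and 3852 TPM in MA9-c-Kit+, and 4311, 4481 and 4424 TPM in MA9-IL-34, and was higher by 0.48 (SE 0.12, adjusted p = 0.00838, limma). For these 3 genes all MA9-IL-34 libraries lay above the other 6, and the calls remained with each library left out, though that of mt-Cytb ended with no filter (adjusted p = 0.0697, limma) and after quantile normalization (adjusted p = 0.0893, limma).

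mt-Nd5 and mt-Nd6, which lie on opposite strands and overlap at their ends, were higher in MA9-IL-34 by smaller amounts. As the labelled library kit does not mark strand, reads of mt-Nd6 cannot be told from RNA of the opposite strand at that place. mt-Nd5 had 1498, 1692 and 1437 TPM in MA9-c-Kit-, 1519, 1226 and 1537 TPM in MA9-c-Kit+, and 1961, 1887 and 1914 TPM in MA9-IL-34. mt-Nd6, the only protein gene on the light strand, had 1285, 1332 and 1143 TPM in MA9-c-Kit-, 1254, 1051 and 1237 TPM in MA9-c-Kit+, and 1674, 1495 and 1549 TPM in MA9-IL-34. In both, the MA9-IL-34 range lay above all others. The differences from MA9-c-Kit- were 0.32 (SE 0.12, adjusted p = 0.049, limma) and 0.33 (SE 0.11, adjusted p = 0.0348, limma). Both calls ended with no filter, after quantile normalization, after median ratio scaling and without the trend (adjusted p from 0.0568 to 0.59, limma). They also ended without MA9-c-Kit- replicate 1 or 3 or any MA9-IL-34 library, and that of mt-Nd5 also without MA9-c-Kit+ replicate 1 or 3 (adjusted p from 0.051 to 0.131).

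mt-Nd3 had 889, 1122 and 681 TPM in MA9-c-Kit-, 1320, 1399 and 1005 TPM in MA9-c-Kit+, and 1814, 1552 and 1009 TPM in MA9-IL-34. The groups overlapped, and its difference of 0.69 from MA9-c-Kit- (SE 0.25, adjusted p = 0.046, limma) ended without MA9-c-Kit- replicate 1 or 3, replicate 1 of MA9-c-Kit+ or replicate 1 or 2 of MA9-IL-34 (adjusted p from 0.062 to 0.16). Summed with Gm28438, the values were 1324, 1985 and 1502 TPM in MA9-c-Kit-, 2087, 1897 and 2089 TPM in MA9-c-Kit+, and 3198, 2940 and 2695 TPM in MA9-IL-34. The MA9-IL-34 sums lay above all others, with a log2 difference of 0.89 from MA9-c-Kit- (SE 0.15, adjusted p = 0.00131, limma). mt-Nd4l summed with Gm10222 was likewise higher than in MA9-c-Kit-, by 0.95 (SE 0.22, adjusted p = 0.00679, limma). mt-Nd1 had 2612, 3075 and 3254 TPM in MA9-c-Kit-, 4145, 2246 and 5047 TPM in MA9-c-Kit+, and 3952, 4630 and 3963 TPM in MA9-IL-34, and it did not pass in any comparison.

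In MA9-IL-34 against MA9-c-Kit+, 3 of 13 mitochondrially encoded subunits were higher (23.1%, beside 7.43% of all genes tested) and 0 lower (limma, also 0 at an unadjusted p under 0.05), with a median log2 difference of 0.35. The count was 1 with only these groups in the fit and 0 with no filter, after median ratio scaling or without the trend. The 3 were mt-Nd6 by 0.42 (SE 0.11, adjusted p = 0.0395, limma), mt-Nd5 by 0.44 (SE 0.12, adjusted p = 0.0423, limma) and mt-Nd4 by 0.35 (SE 0.10, adjusted p = 0.0468, limma). The 3 MA9-IL-34 libraries lay above the 3 MA9-c-Kit+ libraries for each, also without MA9-c-Kit+ replicate 2. All 3 calls ended without MA9-c-Kit- replicate 2, MA9-c-Kit+ replicate 1 or 3 or any MA9-IL-34 library, with adjusted p from 0.0509 to 0.16. The count was 1 without MA9-c-Kit- replicate 1, where mt-Nd6 was left, and 1 without MA9-c-Kit+ replicate 2, where mt-Nd4 was left. Without MA9-IL-34 replicate 2 it was 1 through mt-Nd4l, which that library lists at 0.

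The windows from 250 bases before to 50 bases after a transcription start (RefSeq, GRCm38.p6) were searched for motifs known from genes of the respiratory chain, on both strands, for the 64 nuclear subunits that matched a RefSeq promoter and for 27025 genes in all. The consensus motif of NRF1 was in 5 of 64 (7.81%, beside 1.07% of all genes), the YY1 motif AAGATGGCG in 7 of 64 (10.9%, beside 1.64%), the ETS motif CCGGAAG in 16 of 64 (25%, beside 9.93%) and TATAAA in 5 of 64 (7.81%, beside 15.7%). No test was made on these shares, and a match is not a bound site. Promoters of 3 subunits called in both comparisons against MA9-c-Kit- are shown with the match in capitals: Atp5g2 (chr15:102670998-102671297), Ndufc1 (chr3:51408906-51409205) and Ndufs6 (chr13:73328433-73328732), all on the minus strand.
Atp5g2: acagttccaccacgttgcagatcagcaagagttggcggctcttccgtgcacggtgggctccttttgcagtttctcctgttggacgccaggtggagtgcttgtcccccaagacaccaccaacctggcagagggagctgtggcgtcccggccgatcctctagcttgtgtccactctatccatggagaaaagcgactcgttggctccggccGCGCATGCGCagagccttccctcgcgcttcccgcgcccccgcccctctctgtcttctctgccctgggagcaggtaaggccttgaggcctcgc
Ndufc1: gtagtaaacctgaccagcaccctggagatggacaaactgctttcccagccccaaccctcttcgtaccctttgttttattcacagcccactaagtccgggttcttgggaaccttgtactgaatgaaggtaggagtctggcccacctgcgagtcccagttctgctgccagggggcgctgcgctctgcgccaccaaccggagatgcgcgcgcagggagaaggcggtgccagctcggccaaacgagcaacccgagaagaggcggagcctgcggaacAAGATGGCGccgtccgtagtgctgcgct
Ndufs6: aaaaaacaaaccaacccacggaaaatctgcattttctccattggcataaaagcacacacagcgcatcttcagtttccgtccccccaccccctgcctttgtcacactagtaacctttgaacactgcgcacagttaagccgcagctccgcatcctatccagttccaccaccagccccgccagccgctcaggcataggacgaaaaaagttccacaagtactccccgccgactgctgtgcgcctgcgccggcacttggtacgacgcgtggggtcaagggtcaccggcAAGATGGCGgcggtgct
The match of Atp5g2 is to NRF1 and lies before the start, and those of Ndufc1 and Ndufs6 are to YY1 and lie after it. Ndufc1, a small subunit of the membrane arm of complex I, had 28.4, 28.1 and 33.7 TPM in MA9-c-Kit-, 48.6, 76.5 and 42.5 TPM in MA9-c-Kit+, and 46.4, 42.8 and 47.5 TPM in MA9-IL-34. Ndufs6, an accessory zinc-binding subunit, had 50.6, 58.6 and 76.4 TPM in MA9-c-Kit-, 82.2, 98.9 and 91.1 TPM in MA9-c-Kit+, and 98.7, 98.2 and 90.7 TPM in MA9-IL-34. Both c-Kit+ groups lay above MA9-c-Kit- without overlap for both genes. The call of Ndufs6 in MA9-c-Kit+ ended without MA9-c-Kit- replicate 1 or 2 (adjusted p from 0.0511 to 0.0515, limma), and that of Ndufc1 in MA9-IL-34 without either of those or any MA9-IL-34 library (adjusted p from 0.0624 to 0.0956, limma).

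The genes that build and supply the complexes were read from lists of the same pathway. Of 78 mitochondrial ribosomal proteins, which translate the 13 mitochondrially encoded subunits, 42 were higher in MA9-c-Kit+ and 42 in MA9-IL-34, each against MA9-c-Kit- (53.8% each, beside 19.3% and 26.6% of all genes tested). The former had a median log2 difference of 0.54 and the latter of 0.46, and 0 and 2 were lower (limma). Mrpl44 had the smallest p in both, at 1.03 and 1.00 on the log2 scale. Of 26 measured import components, 17 (65.4%) were higher in MA9-c-Kit+ and 12 (46.2%) in MA9-IL-34 than MA9-c-Kit-, with Timm9 (1.38) and Tomm70a (1.00) having the smallest p. Of 23 measured complex IV assembly factors, 10 were higher in MA9-c-Kit+ (43.5%) and 8 in MA9-IL-34 (34.8%), with Surf1 lower in MA9-c-Kit+. Of 17 for complex I, 7 (41.2%) and 8 (47.1%) were higher, and Ndufaf7 was lower in both. In MA9-IL-34 against MA9-c-Kit+ the counts were few: 2 of 78 ribosomal proteins and 1 of 26 import components were lower, and 1 complex IV assembly factor was higher, beside 5.49% lower and 7.43% higher over all genes tested. That factor, Cmc2, had 11.8, 9.30 and 19.1 TPM in MA9-c-Kit-, 18.1, 23.6 and 21.7 TPM in MA9-c-Kit+, and 83.0, 75.5 and 79.7 TPM in MA9-IL-34, a log2 difference of 1.87 from MA9-c-Kit+ (SE 0.22, adjusted p = 0.000723, limma).

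Of the 22 genes for electron carriers and coenzyme Q synthesis, 10 rose (45.5%) and 2 fell (9.09%) in MA9-c-Kit+, and 12 rose (54.5%) and 2 fell (9.09%) in MA9-IL-34, each against MA9-c-Kit-. Over all genes tested, 19.3% and 19% were called in the former comparison and 26.6% and 23.4% in the latter. Ndufab1 was among those that rose in both, and Cyc1 among those that rose in MA9-c-Kit+. These are subunits of complexes I and III that fall outside the naming rule, so the list is not free of subunits. Etfb, the beta subunit of the electron transfer flavoprotein that feeds electrons from fatty acid oxidation to coenzyme Q, had 97.7, 112 and 119.9 TPM in MA9-c-Kit-, 336, 382 and 285 TPM in MA9-c-Kit+, and 643, 715 and 769.9 TPM in MA9-IL-34. Its 3 groups stood apart, with a log2 difference of 1.09 for MA9-IL-34 against MA9-c-Kit+ (SE 0.13, adjusted p = 0.000789, limma). Of 30 measured genes for transcription, replication and RNA processing of mitochondrial DNA, 12 rose (40%) and 1 fell (3.33%) in MA9-c-Kit+, and 14 rose (46.7%) and 2 fell (6.67%) in MA9-IL-34, each against MA9-c-Kit-. Top1mt, the mitochondrial topoisomerase, had the smallest p in both, at 1.43 and 1.96 on the log2 scale.

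Of 9 measured master regulators of these genes, Myc, Pprc1 and Gabpb1 were higher and Esrra lower in both c-Kit+ groups than in MA9-c-Kit-. That was 33.3% higher in either comparison, beside 19.3% of all genes tested for MA9-c-Kit+ and 26.6% for MA9-IL-34. With Ppargc1b also lower in MA9-IL-34, 11.1% and 22.2% were lower, beside 19% and 23.4%. Myc had 29.9, 33.9 and 28.5 TPM in MA9-c-Kit-, 281, 219 and 84.5 TPM in MA9-c-Kit+, and 135, 178 and 209 TPM in MA9-IL-34. Ppargc1b, a coactivator of mitochondrial biogenesis, had 1.78, 4.15 and 2.62 TPM in MA9-c-Kit-, 4.61, 2.37 and 4.81 TPM in MA9-c-Kit+, and 0.08, 0.07 and 0.12 TPM in MA9-IL-34. All MA9-IL-34 libraries were close to 0, with a log2 difference of -2.14 from MA9-c-Kit+ (SE 0.28, adjusted p = 0.00124, limma). Tfam, Nrf1, Yy1 and Gabpa did not pass in any comparison.

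**Figure D5:**
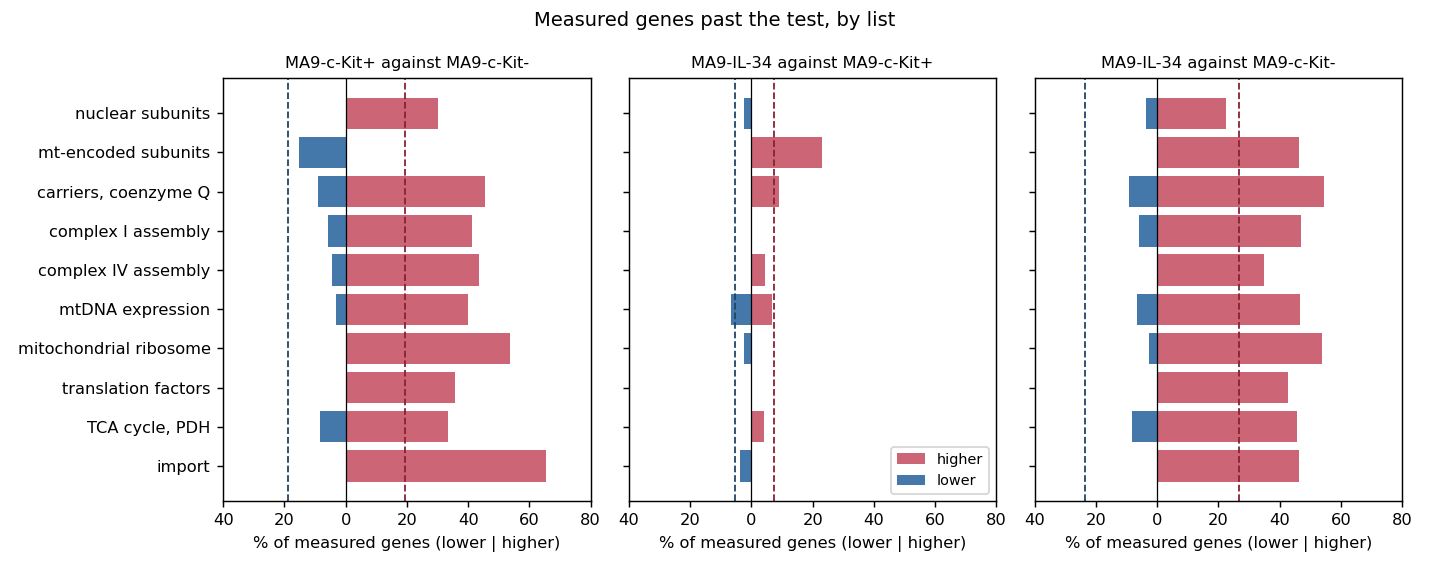
Percentage of measured genes of each list called higher (right of 0) or lower (left of 0) in the 3 comparisons, with dashed lines for the percentages over all 13722 genes tested. In MA9-c-Kit+ against MA9-c-Kit- the nuclear subunits reached 30% and the mitochondrial ribosome 53.8%, and in MA9-IL-34 against MA9-c-Kit+ the mitochondrially encoded subunits reached 23.1%. The 30% includes Cox4i2, which passed the filter on low values only through MA9-c-Kit+.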

How the data were processed

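RNA-seq libraries of sorted leukemia cells were labelled as total RNA prepared with the Illumina TruSeq RNA v2 kit. The study's methods speak of a microarray, while its data availability statement calls the data bulk RNA-seq. The authors deposited a table of TPM values per gene, rounded to 2 decimals, and the aligner, genome build and annotation are not given in the sources used here. Libraries summed to 977580 to 988050 TPM. The number of reads is not part of the values, so depth is unknown and no counting interval is given. All 55536 identifiers were found in GENCODE M21 (GRCm38), from which positions and shared sequence were taken. Promoter windows came from RefSeq (GRCm38.p6).

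TPM values were tested as log2(TPM + 1) with limma 3.58.1 (R 4.3.3, prior variance with trend) over the 13722 genes that reached 1 TPM in 3 or more libraries. All 9 libraries entered 1 fit, and p-values were adjusted by Benjamini-Hochberg within each comparison over all genes tested. Genes with an adjusted p under 0.05 were called, with no limit on fold. Differences on this scale understate changes of low genes. The test was checked on simulated data with independent normal noise and changes added only to well expressed genes. Recovery was required only of changes larger than most called here. The check therefore does not cover low genes such as Cox4i2 or show how often small differences are found. Members and lists were chosen with earlier results of these data known. Genes named are all mitochondrially encoded subunits, nuclear subunits changed by at least 2-fold, the highest subunit and the smallest p in each complex and direction, the paralogs, and up to 4 genes per list. Ndufv3 and Ndufab1 and the subunits with printed promoters were chosen after their values were seen. The sources used here do not state a pairing. Deviations from the group mean correlated between same-numbered libraries of MA9-c-Kit- and of MA9-c-Kit+ at 0.20, 0.24 and 0.44, each over 0.1. By that criterion these numbers were taken as pairs from the data. MA9-c-Kit- replicate 1 with MA9-c-Kit+ replicate 2 also met it, at 0.16, and the other unlike numbers of these groups ran from -0.32 to -0.06. Unlike numbers of MA9-c-Kit+ and MA9-IL-34 reached 0.19, so the criterion alone does not establish pairs. Alternatives were the pseudocount, filter, fit, scaling, fold limit, replicate block and leaving out each library. Summing with genomic copies, and rescaling without both mitochondrial genes and their copies, were chosen after seeing the data.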

Additional observations from a re-analysis of the deposited data

How the results depend on the processing

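The number of reads behind a TPM value is unknown, so low levels such as Cox4i2 cannot be given a counting error, and 3 libraries per group limit every test. The median of the nuclear subunits kept its sign with each library left out: 0.21 to 0.41 for MA9-c-Kit+ against MA9-c-Kit-, 0.14 to 0.36 for MA9-IL-34 against MA9-c-Kit- and -0.15 to -0.03 for MA9-IL-34 against MA9-c-Kit+. The cause of the changes below was not tested.

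With each library left out, MA9-c-Kit+ against MA9-c-Kit- gave 9 to 42 nuclear subunits higher and 0 to 1 lower, 0 to 1 mitochondrially encoded subunits higher and 1 to 2 lower with a median of -0.13 to 0.15, and 3990 to 5362 genes called in all. MA9-IL-34 against MA9-c-Kit- gave 8 to 37 nuclear subunits higher and 1 to 5 lower, 3 to 7 mitochondrially encoded subunits higher and 0 to 1 lower with a median of 0.27 to 0.42, and 5379 to 7515 genes called. MA9-IL-34 against MA9-c-Kit+ gave 0 to 1 nuclear subunits higher and 1 to 5 lower, 0 to 3 mitochondrially encoded subunits higher and 0 to 0 lower with a median of 0.29 to 0.45, and 965 to 2179 genes called.

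For MA9-c-Kit+ against MA9-c-Kit-, nuclear subunits higher numbered 14 with no filter, 11 with only the groups compared in the fit, 43 after quantile normalization and 1 with a fold of at least 2. Mitochondrially encoded subunits lower numbered 1 with no filter, with the filter on all 9 libraries, with only the groups compared and without the trend, and 0 when summed with their copies. With a fold of at least 2, 2033 genes were called.

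For MA9-IL-34 against MA9-c-Kit-, nuclear subunits higher numbered 28 after quantile normalization and 2 with a fold of at least 2. Nuclear subunits lower numbered 1 with no filter, with the filter on all 9 libraries and after quantile normalization, 5 with only the groups compared, and 0 with a fold of at least 2. Mitochondrially encoded subunits higher numbered 2 with no filter and after quantile normalization, 3 after median ratio scaling and without the trend, and 0 with a fold of at least 2. Their median was 0.47 with the filter on all 9 libraries and 0.0946 after quantile normalization, and 3297 genes were called with a fold of at least 2.

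For MA9-IL-34 against MA9-c-Kit+, nuclear subunits lower numbered 4 with only the groups compared and after quantile normalization, and 1 with the filter on all 9 libraries, without the trend and with a fold of at least 2. Mitochondrially encoded subunits higher numbered 1 with only the groups compared, and 0 with no filter, after median ratio scaling, without the trend and with a fold of at least 2. All genes called numbered 1128 with the filter on all 9 libraries and 993 with a fold of at least 2.

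With the replicate number as a block, MA9-c-Kit+ against MA9-c-Kit- gave 22 nuclear subunits called in the fit of the groups compared and 27 in the fit of all 9 libraries, and 1 mitochondrially encoded subunit higher in either. MA9-IL-34 shared only numbers with the other groups, its same-numbered correlations running from -0.28 to about 0. With that block, 0 mitochondrially encoded subunits were higher against MA9-c-Kit+ in either fit, and in the fit of the groups compared 1 nuclear subunit was lower and 749 genes were called. Against MA9-c-Kit- that fit gave 1 nuclear and 1 mitochondrially encoded subunit lower.

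Summed with the copies, 6 differences of mitochondrially encoded subunits had the other sign, 3 of them called alone or summed. Those 3 were mt-Co2 (0.0652) and mt-Nd4l (0.49) in MA9-c-Kit+ against MA9-c-Kit-, and mt-Nd4l (0.95) in MA9-IL-34 against MA9-c-Kit-. The others, called neither way, were mt-Co2 in MA9-IL-34 against MA9-c-Kit- (0.14) and mt-Co3 in MA9-c-Kit+ (0.16) and MA9-IL-34 (0.33) against MA9-c-Kit-.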
